A study of Mus musculus with 8 samples.

Results

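The transcripts described here encode 6 receptor chains for interleukin 6 (IL-6), IL-12, IL-23 and IL-27: Il23r, Il12rb1, Il12rb2, Il6ra, Il6st and Il27ra. They were chosen by name, as chains that combine into the receptors of these related cytokines, and all 6 were found in each of the 8 libraries, among 53657 gene symbols shared by the files. The series compared mouse CD4+ T cells that lack the nuclear receptor RORα (KO, genotype Cd4_cre Rora_fl/fl, in which a Cre recombinase under Cd4 control deletes floxed Rora) with cells that carry the floxed alleles without Cre (WT, Rora_fl/fl). Every library, WT included, thus came from cells with floxed Rora. For colitis, Tcrbd-/- mice, which have no T cells of their own but keep other immune cells, received naive CD4+ T cells of one genotype, and 6 weeks later CD4+ T cells were isolated from their colons (2 KO and 2 WT libraries). For T helper 17 (Th17) cells made in vitro, naive CD4+ T cells were activated on plates through CD3 and CD28 for 4 days, either in IL-6 plus IL-1β plus IL-23 (the IL-23 mix) or in TGF-β plus IL-6 (the TGF-β mix), giving 1 KO and 1 WT library for each mix. All cells received PMA and ionomycin, a pair of drugs that mimic T cell receptor signalling, for 2 hours before lysis, so the levels are those of restimulated cells. The sources used here give neither the age of the mice nor whether a library is 1 mouse or a pool.

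These cytokines signal through shared parts. The IL-6 receptor pairs the binding chain encoded by Il6ra with the signalling chain gp130, encoded by Il6st, and the IL-27 receptor pairs the Il27ra product with the same gp130. The Il12rb1 product is shared by the IL-12 receptor, where it joins the Il12rb2 product, and by the IL-23 receptor, where it joins the Il23r product. The chains carry no kinase of their own and signal through bound JAK kinases to STAT factors, mainly STAT3 for IL-6 and IL-23 and STAT4 for IL-12. IL-6 and IL-23 are known to start and sustain Th17 cells, whereas IL-12 favours Th1 cells.

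Il12rb2 and Il23r are neighbours on mouse chromosome 6, both on the minus strand (mm10 positions 67291318 to 67376188 and 67422932 to 67491855), 46.7 kb apart with 4 annotated genes between them. Il12rb1 (70808449 to 70821424, plus strand) and Il27ra (84030294 to 84042589, minus strand) lie on chromosome 8, Il6ra on chromosome 3 (89864059 to 89913196, minus strand) and Il6st on chromosome 13 (112464070 to 112510086, plus strand). The 250 bases before the starts of Il23r and Il12rb2 are shown because these neighbours differed in opposite directions between KO and WT colon cells. They were read 5′ to 3′ on the minus strand from RefSeq (build GRCm38.p6, the assembly of mm10), at chr6:67491856-67492105 for Il23r and chr6:67376189-67376438 for Il12rb2. Capitals mark AGGTCA, the core motif that ROR proteins are known to bind, on either strand, and TTCNNNGAA, a site type bound by STAT factors.
Il23r: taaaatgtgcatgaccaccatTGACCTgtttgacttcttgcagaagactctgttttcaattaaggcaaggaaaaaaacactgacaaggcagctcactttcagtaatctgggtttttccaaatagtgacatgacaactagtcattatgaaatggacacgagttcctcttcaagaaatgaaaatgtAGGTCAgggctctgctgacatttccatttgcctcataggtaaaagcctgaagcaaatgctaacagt
Il12rb2: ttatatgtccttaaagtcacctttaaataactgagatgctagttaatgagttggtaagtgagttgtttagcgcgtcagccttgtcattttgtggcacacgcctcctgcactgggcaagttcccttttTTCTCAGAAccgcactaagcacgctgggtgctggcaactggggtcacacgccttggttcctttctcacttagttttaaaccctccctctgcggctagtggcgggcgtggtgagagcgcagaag
A window from 250 bases before to 50 bases after the start was searched on both strands for 4 of the 6 genes. AGGTCA began 66 bases before the start of Il23r on the strand of the gene, and its reverse complement, TGACCT, began 229 bases before. The upstream window of Il12rb2 held 1 match to TTCNNNGAA, beginning 123 bases before the start, and none to AGGTCA. Neither motif occurred in the windows of Il6ra and Il6st. AGGTCA is short, and 16.3% of 32851 promoter windows of the same length held 1 or more matches on either strand, against 8.3% for TTCNNNGAA. The share with more than 1 match, as for AGGTCA at Il23r, was not computed. A match is a string of letters and not a measured binding site.

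Libraries held 13176752 to 15922696 counts. Rora itself was lower in each KO library than in its WT counterpart, at 133 and 149 CPM in KO colon cells against 252 and 290 CPM in WT colon cells (CPM, counts scaled to a common library total adjusted by the TMM method). In culture the KO to WT ratio of Rora was 0.388 in the IL-23 mix and 0.38 in the TGF-β mix. Counts over the whole gene do not show which exons were lost. The T cell gene Cd3e had 2369 to 4255 counts in each of the 8 libraries. In the colon, KO libraries also had higher levels of markers of several other cell types, given with the results, and in such bulk samples fewer cells of a type and less RNA per cell cannot be told apart.

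In KO cells from the inflamed colon, transcripts for the IL-12 receptor chains Il12rb1 and Il12rb2 and the IL-6 receptor chains Il6ra and Il6st were higher than in WT cells, transcripts for the IL-23-specific chain Il23r were lower, and Il27ra did not pass the test. Il6ra had the largest difference of the 6, with a KO mean 3 times the WT mean. Of the 6 chains, 4 were higher and 1 lower at an adjusted p under 0.05 (edgeR quasi-likelihood test, Benjamini-Hochberg adjustment over all 13101 tested genes). Among all tested genes 39.5% were called, 19.6% higher and 19.9% lower. The median log2 fold change was 0.60 over the 6 chains and 0.01 over all genes.

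Il23r, the chain that gives the IL-23 receptor its specificity, had 5.86 and 5.10 CPM in the KO colon libraries, against 8.77 and 7.99 CPM in the WT colon libraries. The groups did not overlap, and the KO mean was 65.4% of the WT mean. The share of all genes that separate in this way with 2 libraries per group was not computed, here or for the chains below. These values rest on few reads, 86 and 79 counts in KO and 108 and 112 counts in WT. The log2 fold change was -0.61 ± 0.17 (SE, n = 2 per group) with an adjusted p of 0.0153, and 95% limits of -0.99 and -0.23. Il23r no longer passed without KO replicate 2 (-0.53, adjusted p = 0.0636), with library totals (-0.42, adjusted p = 0.0708), with scaling to T cell markers (-0.29, adjusted p = 0.182) and in DESeq2's Wald test (-0.64, adjusted p = 0.128).

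Il12rb1, the chain common to both receptors, was measured at 169 and 170 CPM in KO and 124 and 124 CPM in WT, with a spread within each group far smaller than the difference between them. Its log2 fold change was 0.45 ± 0.08 (SE, adjusted p = 7.7e-04). Il12rb2, the chain specific to the IL-12 receptor, had 163 and 130 CPM in KO against 88.6 and 82.4 CPM in WT. The KO libraries differed from each other more than the WT libraries did, yet the lower of them lay above both WT libraries. The log2 fold change of Il12rb2 was 0.78 ± 0.11 (SE, adjusted p = 2.2e-04), and it was 0.58 without KO replicate 1 and 0.92 without KO replicate 2. Exons of Il12rb2 share 1519 bases with those of Serbp1, an RNA-binding protein gene on the other strand, and the strand setting of the counting is not given in the sources used here. Serbp1 had 675 and 691 CPM in KO colon cells and 572 and 641 CPM in WT colon cells.

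Il6ra, the IL-6 binding chain, had the lowest level per exon length of the 6 in the colon and the largest relative difference. It had 7.08 and 7.49 CPM in KO (104 and 116 counts) against 2.44 and 2.43 CPM in WT (30 and 34 counts), and the log2 fold change was 1.58 ± 0.20 (SE, adjusted p = 1.3e-04). Il6st, the gp130 chain, had 60.4 and 55.0 CPM in KO against 34.4 and 34.6 CPM in WT, a log2 fold change of 0.74 ± 0.09 (SE, adjusted p = 1.3e-04). For both genes the KO libraries lay above the WT libraries, a separation for which no share over all genes was computed. Il27ra, the IL-27 binding chain, had 68.0 and 65.6 CPM in KO and 67.1 and 63.9 CPM in WT. Its groups overlapped, and its log2 fold change of 0.03 had 95% limits of -0.16 and 0.22 (adjusted p = 0.81). With scaling to T cell markers it passed, at 0.35 (adjusted p = 0.0055).

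**Figure D1:**
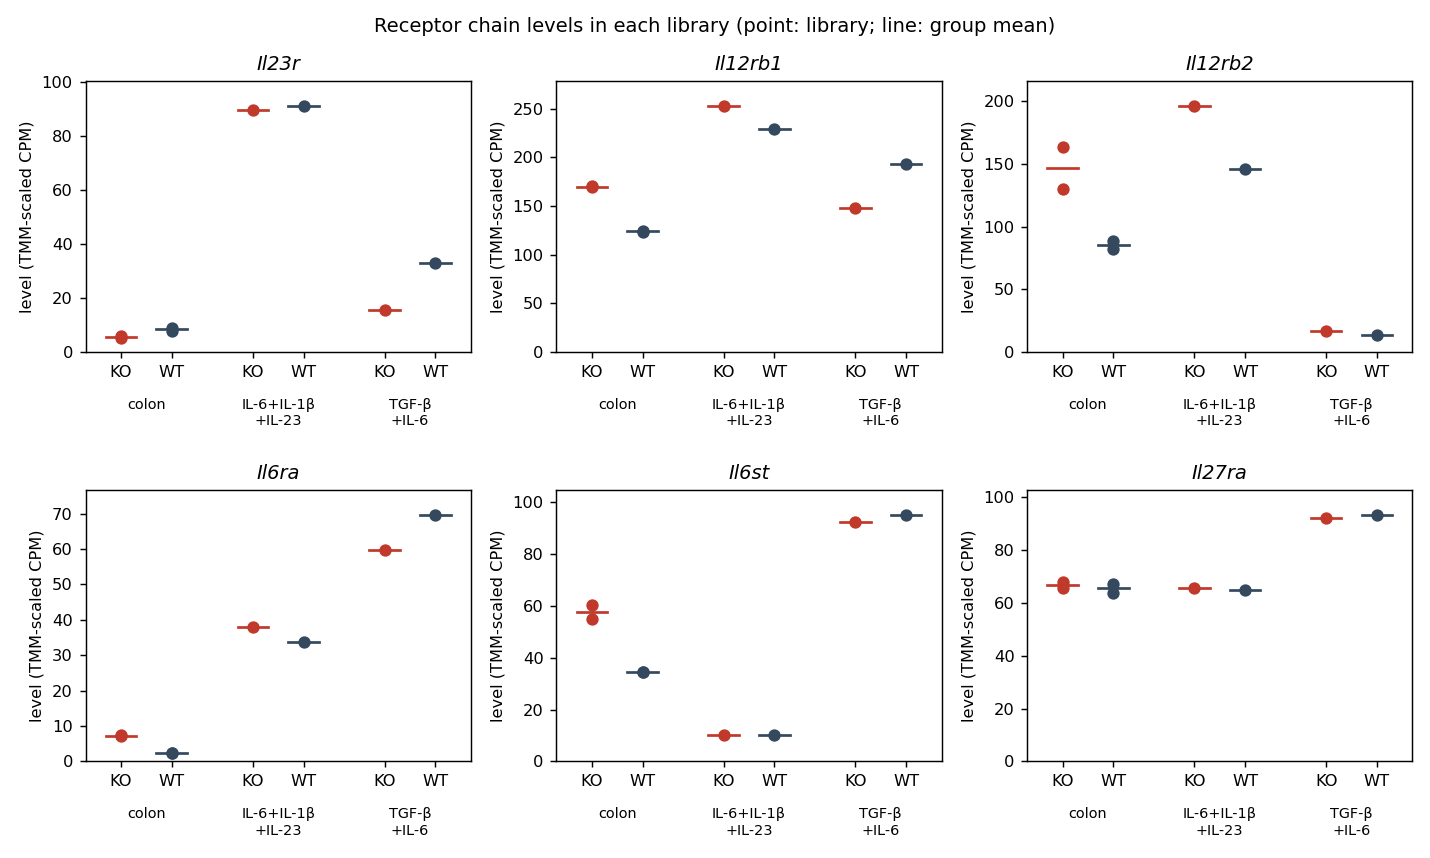
Level of each receptor chain in every library, in TMM-scaled CPM (y axis, from 0), for KO (red) and WT (dark) cells from the colon, the IL-23 mix and the TGF-β mix; points are libraries and lines are group means. Il6st had 10.3 CPM (KO) and 10.01 CPM (WT) in the IL-23 mix, against 92.4 CPM (KO) and 95.2 CPM (WT) in the TGF-β mix.

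Markers of other cell types differed between the same colon libraries. Of 10 tested epithelial markers (12 listed), 9 were higher in KO and none lower, with a summed level of 130 to 131 CPM in KO against 46.7 to 50.5 CPM in WT. Fibroblast markers were higher in 10 of 11 tested cases (128 to 138 CPM in KO, 32.6 to 45.2 CPM in WT), and B and plasma cell markers in 5 of 6 tested cases of 9 listed (2070 to 2250 CPM in KO, 568 to 580 CPM in WT). Macrophage markers were higher in 6 of 9 tested cases of 11 listed (78.1 to 78.2 CPM in KO, 52.0 to 55.3 CPM in WT). Of 5 tested dendritic cell markers (8 listed), 3 were higher and 2 lower (223 to 226 CPM in KO, 153 to 156 CPM in WT), and of 7 tested markers of NK and innate lymphoid cells 3 were higher and 2 lower (904 to 969 CPM in KO, 479 to 488 CPM in WT). Endothelial markers were higher in 3 of 5 tested cases of 7 listed, at sums of 101 to 105 CPM in KO and 100 to 106 CPM in WT, and of 8 neutrophil markers only 1 had enough counts to be tested and it did not pass (summed level 1.36 to 2.32 CPM in KO, 1.46 to 2.21 CPM in WT). The neutrophil gene S100a8 had 0 counts in both KO libraries and 0 and 2 counts in the WT libraries. T cell markers were lower in 12 of 16 tested cases and higher in 1, at 10600 to 10700 CPM in KO against 13100 to 13500 CPM in WT. Il6ra and Il6st are also made by macrophages, epithelium and stroma. The part of other cells in the colon difference was not tested for any of the 6 chains.

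The scaling sets the size of each colon difference. Library totals in place of TMM moved the median of all genes by 0.19 on the log2 scale, and with them 77.2% of called genes were higher in KO in place of 49.6%. Scaling to the summed T cell markers moved that median by 0.32, with 88.7% of calls higher. Such a change of scale moves all genes by about the same amount, so it does not alter the chains' differences from one another or from the median of all genes. With TMM those differences from the median were 1.57 for Il6ra, 0.765 for Il12rb2, 0.73 for Il6st, 0.44 for Il12rb1, 0.02 for Il27ra and -0.625 for Il23r on the log2 scale. Il6ra, Il12rb2, Il6st and Il12rb1 passed the test under each of these scalings.

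**Figure D2:**
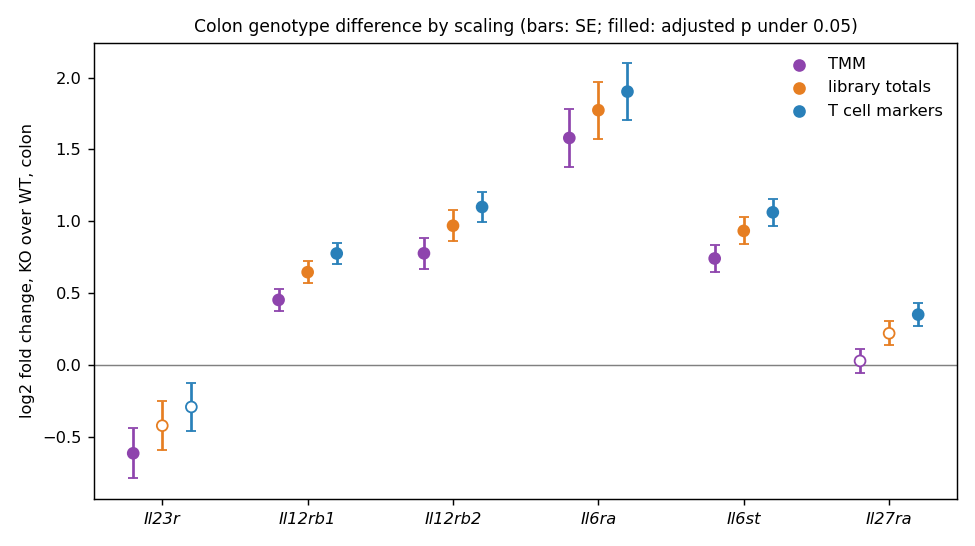
Log2 fold change of each receptor chain, KO over WT, in colon cells (y axis) with TMM, library totals or summed T cell markers as the scale; bars are standard errors and filled points have an adjusted p under 0.05. Il23r was at -0.61 with TMM and -0.29 with T cell markers and passed only with TMM among these 3 scalings, while Il6ra ranged between 1.58 and 1.90.

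Ratios between chains within a library do not depend on the scaling. The ratio of Il12rb2 to Il23r, in counts per exon length, was 18.3 and 16.7 in KO colon cells, against 6.62 and 6.76 in WT colon cells. The lowest counting interval in KO began at 13.3 and the highest in WT ended at 8.28 (95%, counting error only). The ratio of Il23r to its partner Il12rb1 was 0.057 and 0.0494 in KO against 0.116 and 0.107 in WT. The ratio of Il12rb2 to the same partner was 1.04 and 0.826 in KO against 0.771 and 0.721 in WT. For the IL-6 receptor, the ratio of Il6ra to Il6st was 0.151 and 0.175 in KO and 0.0911 and 0.0900 in WT. The ratio of Il27ra to Il6st was 3.58 and 3.79 in KO and 6.2 and 5.86 in WT. The point values of these 5 ratios did not overlap between the genotypes, but the counting intervals did for Il12rb2 to Il12rb1 (lowest in KO 0.779 to 0.876, highest in WT 0.713 to 0.834) and for Il6ra to Il6st (lowest in KO 0.122 to 0.185, highest in WT 0.0607 to 0.132). How often other pairs of genes separate in this way was not computed. The size of each ratio with Il12rb2 also depends on how reads on the bases shared with Serbp1 were counted, which is not known. With 2 libraries per group no permutation test on a single ratio can reach 0.05, so the ratios are given as values.

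**Figure D3:**
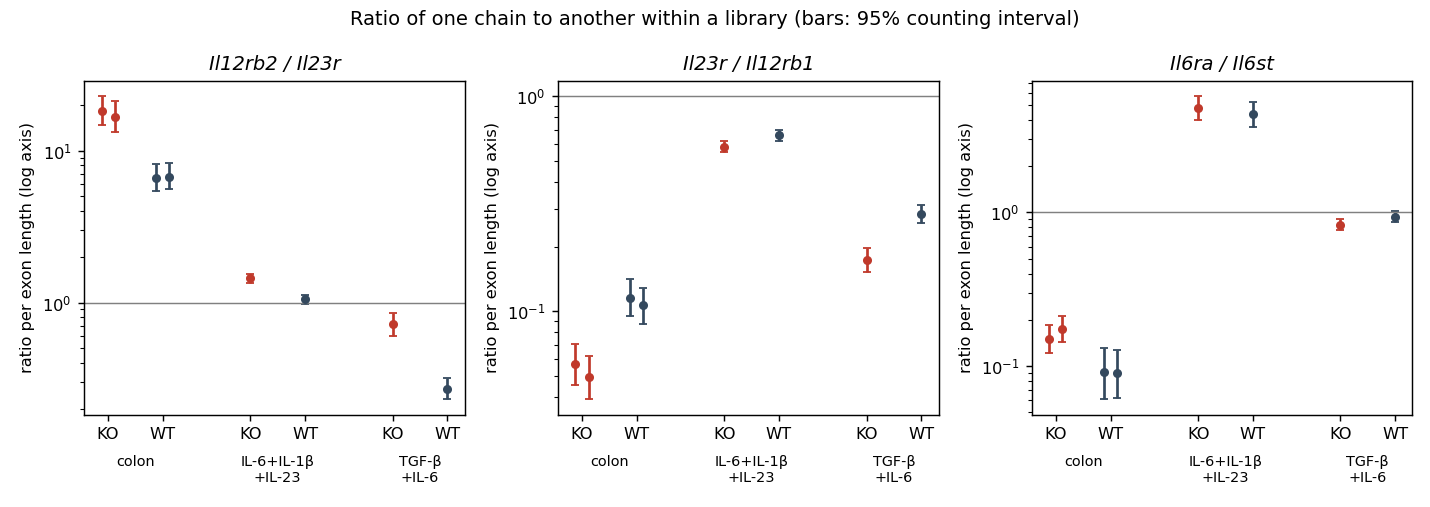
Ratio of one receptor chain to another per exon length within each library (log y axis) for KO (red) and WT (dark) cells; bars are 95% counting intervals and the grey line marks equal levels. Il12rb2 exceeded Il23r by 16.7-fold or more in KO colon libraries and lay below it in both TGF-β mix libraries (0.719 in KO, 0.271 in WT).

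In cultured Th17 cells, none of the 6 chains passed the test for genotype when the 2 mixes were taken as repeats of the KO to WT difference. Few genes passed at all, since 0.0286% of 13983 genes were called in edgeR's test. DESeq2's Wald test also called none of the 6 chains, and it called 6 genes in all. At an unadjusted p under 0.05 edgeR gave 1 of the 6 chains, Il12rb2, and 500 of all 13983 genes. Il12rb2 was higher in KO in both mixes, with a log2 fold change of 0.40 ± 0.08 (SE, edgeR adjusted p = 0.60, unadjusted p = 0.00104). Il12rb2 had 196 CPM in KO against 146 CPM in WT in the IL-23 mix, and 17.1 CPM in KO against 13.7 CPM in WT in the TGF-β mix. The KO to WT ratios were 1.35 (95% counting interval 1.28 to 1.43) and 1.25 (1.04 to 1.5).

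The KO to WT ratio of Il23r was lower in the TGF-β mix than in the IL-23 mix, but the test of that difference did not pass after adjustment. In the TGF-β mix Il23r had 15.6 CPM in KO (249 counts, 95% interval 219 to 282) against 33.1 CPM in WT (523 counts, 479 to 570), a ratio of 0.472 (0.404 to 0.55). In the IL-23 mix it had 89.4 CPM in KO (1374 counts) and 91.1 CPM in WT (1384 counts), a ratio of 0.982 (0.91 to 1.06). Few genes had a ratio as low in the TGF-β mix, where 0.146% of 9589 genes were at least 2-fold lower in KO. In a fit of all 8 libraries with a genotype difference for each mix, added after seeing the data, the difference between the mixes was -1.04 ± 0.21 on the log2 scale for Il23r (edgeR adjusted p = 0.39, unadjusted p = 2.9e-04). That fit takes the spread from the colon replicates alone and assumes that the cultured libraries vary like them, and it called 0.0316% of 15836 genes, 0.0189% higher and 0.0126% lower. With no filter on low counts Il23r passed in edgeR's test (adjusted p = 0.015). It did not pass there with DESeq2 size factors (adjusted p = 0.313) or library totals (0.351). DESeq2's Wald test did not call it either (unadjusted p = 0.0142). With 1 colon library left out the difference ranged between -1.05 and -1.04, but this changes the borrowed spread and not the cultured counts. Whether Il23r passed in those fits depended on which colon library was left out. Across both mixes the log2 fold change of Il23r was -0.44 ± 0.20 (SE, adjusted p = 1, unadjusted p = 0.0552).

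Il12rb1 had 253 CPM in KO and 229 CPM in WT in the IL-23 mix (ratio 1.11, 1.06 to 1.16), and 148 CPM in KO and 193 CPM in WT in the TGF-β mix (ratio 0.769, 0.729 to 0.812). Its ratios thus lay on opposite sides of 1, and their difference did not pass (-0.51 ± 0.15, edgeR adjusted p = 1). Il6ra had ratios of 1.13 (0.998 to 1.27) in the IL-23 mix and 0.857 (0.785 to 0.935) in the TGF-β mix. For Il6st and Il27ra the 95% counting intervals of the KO to WT ratio held 1 in both mixes. Over both mixes, the 95% limits of the log2 fold change were -0.23 and 0.19 for Il6st and -0.16 and 0.17 for Il27ra.

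The genotype difference in the colon was larger than that in culture for 3 of the 6 chains, in a test of the difference itself over all 8 libraries. The culture side of this test is 1 common difference over both mixes. It averages unlike KO to WT ratios for Il23r (0.982 in the IL-23 mix, 0.472 in the TGF-β mix) and Il12rb1 (1.11 and 0.769). The excess in the colon was 1.61 ± 0.22 on the log2 scale for Il6ra (SE, edgeR adjusted p = 4.0e-04), 0.75 ± 0.13 for Il6st (adjusted p = 0.0020) and 0.56 ± 0.14 for Il12rb1 (adjusted p = 0.014). Among all 14886 tested genes, 7.73% were called in this direction and 9.57% in the other. For Il12rb2 the excess of 0.38 ± 0.15 did not pass (adjusted p = 0.094), though it did with library totals (0.57, adjusted p = 0.015) and without KO replicate 2 (0.53, adjusted p = 0.016). Il23r gave -0.14 (0.05 with library totals) with 95% limits of -0.79 and 0.51 (adjusted p = 0.81), and Il27ra gave 0.02 with limits of -0.22 and 0.26 (adjusted p = 0.94). Of the marker lists of other cells with calls in the colon, B and plasma cells summed in culture to 2.17 to 3.89 CPM. NK and innate lymphoid cells summed to 5.01 to 11.3 CPM and epithelium to 8.01 to 18.3 CPM. The sums reached higher for macrophages (2.28 to 35.4 CPM), endothelium (17.2 to 76.6 CPM), dendritic cells (20.6 to 199 CPM) and fibroblasts (2.28 to 447 CPM). The part of other cells in these differences between colon and culture was not tested.

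**Figure D4:**
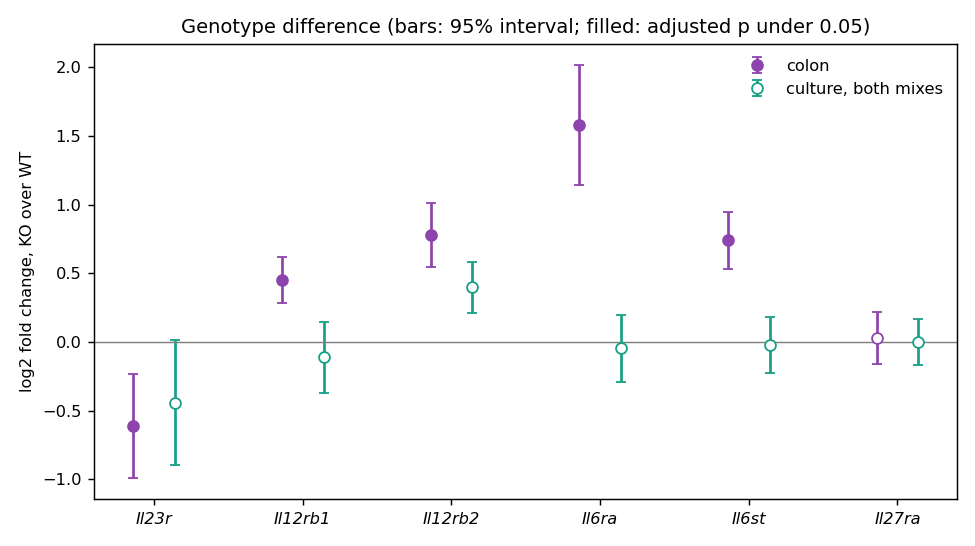
Log2 fold change, KO over WT (y axis), of each receptor chain in colon cells (purple) and in cultured Th17 cells across both mixes (green); bars are 95% intervals and filled points have an adjusted p under 0.05. Il6ra was at 1.58 in the colon and -0.04 in culture, and Il27ra was near 0 in both.

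The cytokine mix changed all 6 chains. In the IL-23 mix, as compared with the TGF-β mix, the chains Il12rb2, Il23r and Il12rb1 rose and Il6st, Il6ra and Il27ra fell. In edgeR's test 69.8% of 13983 genes were called, 35.8% higher and 34% lower, so that passing the test was common in this comparison. The genotypes served as repeats of the mix difference. Il12rb2 rose by 3.47 ± 0.09 on the log2 scale (SE, adjusted p = 3.2e-08) and lay at percentile 96.9 of all fold changes. Il6st fell by 3.21 ± 0.09 (adjusted p = 6.9e-08) and lay at percentile 0.6.

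In the IL-23 mix, Il12rb2 had 196 CPM (KO) and 146 CPM (WT), against 17.1 CPM (KO) and 13.7 CPM (WT) in the TGF-β mix. The increase was 11.5-fold in KO (95% counting interval 10.1 to 13) and 10.6-fold in WT (9.25 to 12.3). Serbp1, which shares exonic bases with it, had 1144 CPM (KO) and 1147 CPM (WT) in the IL-23 mix and 1488 CPM (KO) and 1420 CPM (WT) in the TGF-β mix. Between the mixes Serbp1 thus ran opposite to Il12rb2, whereas in the colon both were higher in KO. The part of shared reads in either difference was not tested. Il23r, which responds to IL-6 and STAT3 in Th17 cells, had 89.4 CPM (KO) and 91.1 CPM (WT) in the IL-23 mix against 15.6 CPM (KO) and 33.1 CPM (WT) in the TGF-β mix. Its rise was 5.73-fold in KO (5 to 6.59) and 2.75-fold in WT (2.49 to 3.05), with a common log2 fold change of 1.94 ± 0.20 (SE, adjusted p = 4.4e-05). Il12rb1 rose less, by 0.51 ± 0.11 on the log2 scale (adjusted p = 0.0039), 1.71-fold in KO and 1.19-fold in WT.

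Il6st had 10.3 CPM (158 counts, KO) and 10.01 CPM (152 counts, WT) in the IL-23 mix against 92.4 CPM (1474 counts, KO) and 95.2 CPM (1505 counts, WT) in the TGF-β mix. The ratio was 0.111 in KO (0.0939 to 0.131) and 0.105 in WT (0.0883 to 0.124). Il6ra fell by 0.84 ± 0.11 on the log2 scale (adjusted p = 1.4e-04), with 38.1 CPM (KO) and 33.8 CPM (WT) in the IL-23 mix against 59.7 CPM (KO) and 69.7 CPM (WT) in the TGF-β mix. Il27ra fell by 0.51 ± 0.07 (adjusted p = 3.1e-04), with 65.8 CPM (KO) and 64.7 CPM (WT) in the IL-23 mix against 92.3 CPM (KO) and 93.3 CPM (WT) in the TGF-β mix. IL-6 was present in both mixes, so the comparison sets IL-1β and IL-23 against TGF-β and not IL-6 against its absence.

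**Figure D5:**
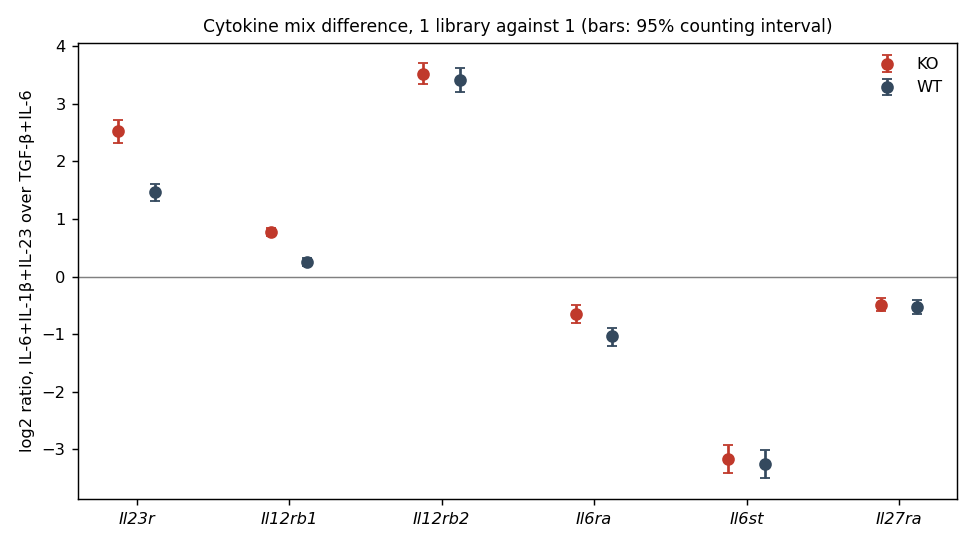
Log2 ratio of each receptor chain in the IL-23 mix over the TGF-β mix (y axis), 1 library against 1, in KO (red) and WT (dark) cells; bars are 95% counting intervals. The genotypes lay close together for Il12rb2 (3.52 in KO, 3.41 in WT) and Il6st (-3.17 in KO, -3.25 in WT) and apart for Il23r (2.52 in KO, 1.46 in WT).

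The order of the chains per exon length changed with the setting. Levels are given in RPKM, CPM divided by the exon length in kilobases, on a scale common to all 8 libraries. The 3.79 kb taken for Il12rb2 include the 1519 bases shared with Serbp1, and how reads on these were counted is not known. Its place relative to the other chains is therefore uncertain in every setting. In the colon Il12rb1 led, with 45.6 ± 0.17 RPKM in KO and 33.4 ± 0.07 RPKM in WT (SD, n = 2). Il12rb2 followed with 42.6 ± 6.8 RPKM in KO and 24.9 ± 1.2 RPKM in WT, and the KO libraries of Il12rb1 and Il12rb2 overlapped. Il27ra came next with 21.1 RPKM in KO and 20.7 RPKM in WT, and Il6ra was last with 0.930 RPKM in KO and 0.312 RPKM in WT. Between them, KO colon cells had more Il6st (5.73 RPKM) than Il23r (2.43 RPKM). In WT colon cells Il6st (3.44 RPKM) and Il23r (3.73 RPKM) could not be told apart, since the counting intervals of their ratio held 1 in both libraries.

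In the IL-23 mix the order was Il12rb1 (56.4 RPKM in KO, 51.1 in WT), Il12rb2 (47.3 in KO, 35.2 in WT), Il23r (32.9 in KO, 33.6 in WT), Il27ra (17.2 in KO, 16.99 in WT), Il6ra (4.03 in KO, 3.59 in WT) and Il6st (0.847 in KO, 0.827 in WT). In WT the ratio of Il12rb2 to Il23r was 1.05 with an interval that held 1 (0.979 to 1.12). In the TGF-β mix, Il12rb1 (33.1 RPKM in KO, 42.9 in WT) and Il27ra (24.2 in KO, 24.4 in WT) led and Il12rb2 was last (4.13 in KO, 3.29 in WT). Il23r had rank 3 in WT (12.2 RPKM) and rank 5 in KO (5.75 RPKM), where it lay close to Il6ra. No interval was computed for the ratio of Il23r to Il6ra, so its rank in KO is uncertain. Il6st (7.63 in KO, 7.85 in WT) and Il6ra (6.33 in KO, 7.37 in WT) lay close together, and in WT the interval of their ratio held 1 (0.868 to 1.02). Tissue, annotation and preparation differed together between colon and culture and cannot be told apart, so differences between them are values only. Il6ra, for example, had 0.312 RPKM in WT colon cells and 3.59 and 7.37 RPKM in the WT cultures.

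Across the 8 libraries Il6st and Il27ra had the most similar profiles among the 6 (Pearson r = 0.954 of log2 CPM), and Il12rb2 and Il27ra the most opposed (r = -0.77). The neighbours Il23r and Il12rb2 had an r of -0.04. By the same measure, the 3 nearest profiles among 9140 genes with a mean of at least 5 CPM were those of Rhoq, Smad3 and Ndst1 for Il23r (r = 0.988 to 0.9945), Rnf6, Kdm5a and Pcyt1a for Il12rb1 (0.947 to 0.961) and Cdc42bpg, Akap8l and Zbp1 for Il12rb2 (0.991 to 0.992). For Il6ra they were Malt1, Nsd1 and Zhx1 (0.998 each), for Il6st Tspan5, Zfp827 and Meaf6 (0.994 to 0.996) and for Il27ra Mtrr, Wdcp and Usp36 (0.994 to 0.995). The 8 points share 3 settings, so these values are descriptions.

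Genes that act with these receptors also differed between KO and WT colon cells. Of 13 ligand genes of the family, 7 could be tested, 1 was higher in KO and 3 were lower. Il6, the ligand of the Il6ra chain, rose by 1.96 ± 0.11 on the log2 scale (SE, adjusted p = 5.7e-07), at 55.8 and 64.5 CPM in KO against 14.9 and 15.9 CPM in WT. Fibroblast markers moved with it, and their part was not tested. Osm, for oncostatin M, fell with a log2 fold change of -1.13, Lif, for leukaemia inhibitory factor, with -0.70 and Clcf1 with -0.295. Of 7 other chains of the gp130 family, 4 could be tested and 2 were higher in KO, Osmr with 29 and 21 counts in KO against 12 and 5 counts in WT, and Lepr with 18 and 11 counts in KO against 1 and 0 counts in WT. DESeq2's Wald test called 1 gene of this list. Background percentages for the colon comparison are those given with the receptor chains.

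Among 8 kinase and STAT genes, 2 were higher and 3 lower in KO colon cells. Jak2, a kinase bound to these receptors, rose to 1134 and 1174 CPM in KO, against 600 and 571 CPM in WT (log2 fold change 0.98 ± 0.08, adjusted p = 5.5e-06). Stat3, the main factor downstream of IL-6 and IL-23, was at 824 and 781 CPM in KO against 1211 and 1195 CPM in WT (-0.58 ± 0.08, adjusted p = 1.6e-04). Stat5a (-0.49) and Stat5b (-0.47) were lower too. Stat4, the factor downstream of IL-12, was higher by 0.45 ± 0.08 and is named after its value was seen. Among 11 genes of feedback and receptor shedding, 3 were higher and 2 lower. Socs3, an inhibitor that binds gp130, fell to 309 and 275 CPM in KO, against 501 and 486 CPM in WT (-0.76 ± 0.08, adjusted p = 5.0e-05). Adam10, a protease that can shed the IL-6 receptor, was higher (0.70), as was Socs2 (0.82), while Cish was lower (-0.35). Among 9 regulators, 3 were higher and 3 lower, with Batf at -1.16, Irf4 at -0.59, Gata3 at 0.98 and Ahr at 0.42.

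Between KO and WT cultures none of these genes passed edgeR's test, over 5 tested ligands, 2 other chains, 8 kinases and STATs, 11 feedback genes and 9 regulators. At an unadjusted p under 0.05 there was 1 ligand, 1 kinase or STAT and 2 regulators, and DESeq2's Wald test called none. Among all 13983 genes, 500 had such a p. Between the cytokine mixes 4 of 5 ligands rose and 1 fell in the IL-23 mix, and these counts and those of the next lists stand beside 69.8% of all genes called, 35.8% higher and 34% lower. Ebi3, a subunit of IL-27, rose by 3.58 ± 0.205 on the log2 scale, Osm by 1.124 and Lif by 0.67, and Clcf1 fell by 1.55. Of 8 kinases and STATs, 5 rose and 2 fell, with Stat4 at 1.11, Stat3 at 1.09 and Jak2 at -0.84. Of 11 feedback genes, 6 rose and 5 fell. Socs3 had 331 CPM (KO) and 355 CPM (WT) in the IL-23 mix against 34.9 CPM (KO) and 33.4 CPM (WT) in the TGF-β mix (3.33 ± 0.08, adjusted p = 3.2e-08). Socs1 rose by 1.72, Adam10 fell by 1.44 and Socs2 fell by 1.35. Of 9 regulators, 1 rose and 6 fell. Ahr fell by 3.27 and Irf4 by 1.01, and Prdm1 rose by 3.55, with 88 (KO) and 62 (WT) counts in the IL-23 mix against 4 (KO) and 9 (WT) counts in the TGF-β mix.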

How the data were processed

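Read counts per gene were analysed as deposited by the authors, whole numbers with no normalization per the file headers. Per the submitters' processing notes, Trim Galore, Bowtie2, featureCounts, edgeR and DESeq2 were used on build mm10. Roles, versions, strandedness and read length are not given in the sources used here. Colon files list Ensembl identifiers with symbols and culture files list symbols alone. Files were joined by unique symbol. Genes were tested in R 4.3.3 with edgeR 4.0.16 (quasi-likelihood F-test after filterByExpr and TMM scaling, Benjamini-Hochberg adjustment over all tested genes, threshold 0.05), and the standard error is the fold change divided by the root of F. Colon libraries were fitted alone (2 residual degrees of freedom), cultures with mix and genotype (1), and the difference between colon and culture in all 8 libraries (3). DESeq2 1.42.0 was an alternative. Levels per length used the union of exons in GENCODE M21. Counting intervals of 95% are exact Poisson or Clopper-Pearson intervals, and they cover counting error only. The planned tests were tried on simulated counts with a fixed spread, in which the changed genes had many counts. That trial did not cover changed genes with few counts or the fit with a genotype difference per mix. Replicate libraries differed by more than counting error (chi-square per gene 5.03 in KO and 6.85 in WT). Nothing says whether they are separate mice, so the spread behind each p-value is that of libraries and may be technical. The receptor chains and gene lists were chosen with earlier results of these data known. Named genes were the 6 chains, Rora, up to 4 genes with the smallest p per list and comparison, and the 3 nearest profiles per chain over the 8 libraries. The fit with a genotype difference per mix was added after seeing the data. Protein sequences were not used here. Some genes that the rule would name are not reported here.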

Additional observations from a re-analysis of the deposited data

Results flagged for a closer look

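The genotype difference was larger in the colon than in culture by 1.61 for Il6ra, 0.75 for Il6st and 0.56 for Il12rb1 on the log2 scale, each past the threshold in a test of the difference over all 8 libraries. The KO to WT ratio of Il12rb1 was 1.11 in the IL-23 mix (IL-6, IL-1β and IL-23) and 0.769 in the TGF-β mix (TGF-β and IL-6), on opposite sides of 1 with 1 library per arm, and the test of this difference that borrows its spread from the colon replicates did not pass (edgeR adjusted p = 1).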

How the results depend on the processing

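Between KO and WT colon cells, Il12rb1, Il12rb2, Il6ra and Il6st kept their direction and passed under every alternative run. Il23r kept its direction and no longer passed with library totals (-0.42), DESeq2 (-0.64), T cell marker scaling (-0.29) or without KO replicate 2 (-0.53, adjusted p = 0.0636), and it ranged between -0.73 and -0.53 with 1 library left out. Il27ra ranged between -0.018 and 0.054 with 1 library left out, changing sign near 0, and passed with T cell marker scaling (0.35). The count of genes called ranged between 4198 and 5133 with 1 library left out. For the genotype difference in culture, 9 genes were called with DESeq2 size factors, 9 with library totals, 0 with no filter (DESeq2's Wald test gave 6, and 500 genes had an unadjusted p under 0.05 with the filter) and 15 in the fit of all 8 libraries, in place of 4. Il27ra changed sign there with no filter (-0.004). Leaving out a cultured library leaves no residual degrees of freedom and was not run. All 6 mix differences kept direction and call under every alternative run. For colon minus culture, Il23r changed sign with library totals (0.049) and Il12rb2 passed (0.57). With 1 colon library left out, Il12rb2 ranged between 0.20 and 0.53, Il27ra between -0.015 and 0.046, and the count of calls between 1676 and 2452, the lowest without KO replicate 2. DESeq2 called 1697 in place of 2575. For the difference between mixes, Il23r passed with no filter (-1.04) and ranged between -1.05 and -1.04 with 1 colon library left out, while calls numbered 23 with no filter and 8 to 28 with 1 library left out, in place of 5. In that comparison Il23r also passed when either KO colon library was left out, but not when either WT colon library was. Such fits leave 1 library in a colon group, and they change the borrowed spread and not the cultured counts. The causes were not tested. The labels do not say that equal replicate numbers mark a shared batch, and with 2 pairs (correlation of deviations 0.168) they were not taken as paired. The replicate block gave 6230 calls in place of 5173 and changed no call among the 6 chains (Il23r -0.61, Il12rb1 0.45, Il12rb2 0.77, Il6ra 1.58, Il6st 0.74, Il27ra 0.03). Depth limits Il6ra, with 30 to 34 counts in WT colon libraries, and Il23r, with 79 to 112 in all 4.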
